A study of Drosophila melanogaster with 4 samples.

Results

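The genes of synaptic vesicle release and recycling were described in adult heads of *Drosophila melanogaster*. The set was a list of 36 genes named by their FlyBase symbols, covering SNAREs, priming factors, synaptotagmins, active zone proteins, vesicle proteins and endocytic proteins, and 34 of them were analysed among the 13608 genes of the count table. *Syx1A* (FBgn0013343), the plasma membrane syntaxin, and *stnB* (FBgn0016975), an endocytic adaptor, were not analysed here. The libraries were 4 replicates of untreated adult wild-type flies, drawn according to the series record from independent wild-type lines. There was 1 condition and therefore no comparison between groups and no p-value. The spread between replicates includes any difference between lines.

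RNA came from powdered whole heads, so neurons, eye, glia, muscle and fat body contributed to every library. In such bulk RNA, fewer cells of a type and less RNA per cell cannot be told apart. The paper's methods refer for this RNA to the input of its RNA immunoprecipitation. That protocol lysed UV-cross-linked head powder in detergent, cleared the lysate by centrifugation and treated it with proteinase K. The effect of these steps on the levels was not tested. Each library was made with a QuantSeq REV kit, which primes at the poly(A) tail and gives 1 read for a transcript end. Reads from transcript ends do not grow in number with transcript length. Levels of different genes were therefore set side by side as counts per 1000000 reads of the library (CPM). Priming at A-rich stretches inside a transcript can add reads. The paper's methods removed poly(A) sites likely to come from such internal priming. Whether the gene counts had this step was not given, and its part in the differences between genes was not tested. The reads carried no molecular identifiers, so repeated copies of a molecule could not be recognised. The 95% Wilson intervals given for single libraries cover counting error only. They take reads as independent and are too narrow where reads are copies.

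Synaptic vesicles fuse when the vesicle SNARE synaptobrevin zips together with the plasma membrane SNAREs syntaxin and SNAP25. Priming factors make docked vesicles ready, synaptotagmin senses the calcium that enters through channels at the active zone, and the ATPase NSF with its adaptor SNAP takes spent SNARE complexes apart. Vesicle membrane is then retrieved by clathrin adaptors, dynamin and lipid phosphatases. In *Drosophila* many of these genes are known through mutants that are paralysed by heat, such as *shi* and *comt*.

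Library totals ran from 8753359 to 13434565 counts. Summed levels of marker lists varied between the libraries, from 1892 to 3171 CPM for 5 neuronal genes, 1819 to 3475 CPM for 7 glial genes and 28099 to 38837 CPM for 8 photoreceptor genes. The sums were 7480, 10305, 6744 and 5379 CPM for 9 muscle genes in replicates 1 to 4. For 5 fat body genes they were 1175, 1779, 1429 and 2751 CPM. Every gene of these lists had at least 10 counts in every library. On the CPM scale the neuronal genes *elav* at 145 ± 14.5 CPM (SD, n = 4), *Appl* at 609.5 ± 42.6 CPM and *fne* at 457 ± 53.6 CPM were steady. The sodium channel gene *para*, in contrast, ran from 256 to 1384 CPM and was highest in replicates 2 and 3. The remaining neuronal gene, *futsch*, was at 564 ± 120 CPM. Replicate 1 stood apart in genes of tissues outside the head. Its summed level of 5 male accessory gland genes was 259.6 CPM, against 4.68, 4.00 and 43.7 CPM in replicates 2 to 4. Replicate 4 thus lay above replicates 2 and 3 in these genes. The sum of 6 midgut genes was 855 CPM in replicate 1 against 130.2 to 192 CPM in the others. The part of these differences in the results below was not tested.

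The 34 genes were abundant as a set but spanned a wide range of levels. Their mean levels ran from 3.08 CPM for *Sytbeta* to 1013 CPM for *nSyb*, with a median of 75.6 CPM. The median over all 13608 genes was 7.01 CPM, and the median over the 7754 genes for which each replicate held 10 counts or more was 25.4 CPM. Of the 34 genes, 33 reached that count in each library, compared with 57.0% of all genes. The exception was *Sytbeta*. None of the 34 had a count of 0 in any replicate, whereas 36.7% of all genes did. Of the set, 11 of 34 genes had a mean of at least 100 CPM, compared with 10.2% of all genes, and 6 of 34 lay below 20 CPM. Among the 7754 genes, the 33 ranked at a median percentile of 77.4, from 17.4 for *stnA* to 97.6 for *nSyb*.

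**Figure D1:**
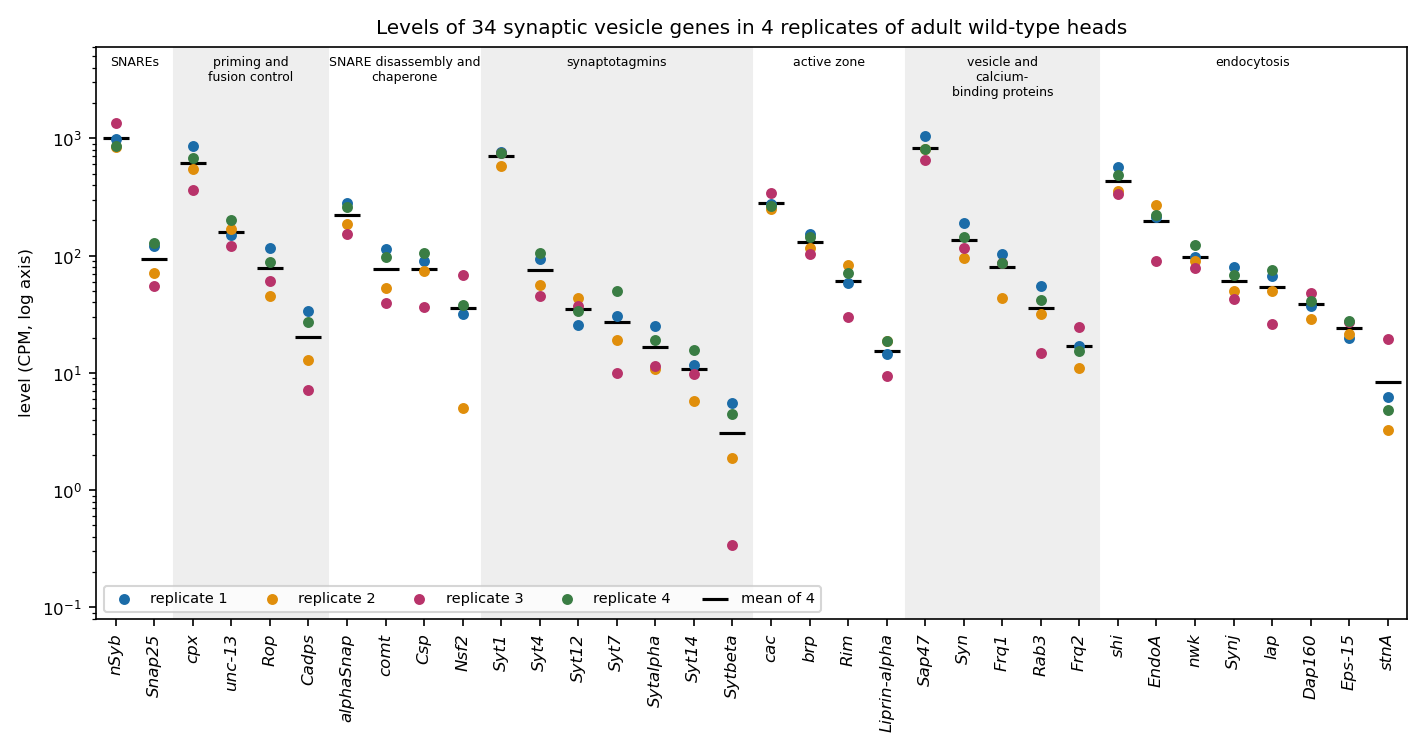
Level of each of the 34 genes in CPM (log axis) in the 4 replicates, coloured by replicate, with a bar at the mean and the genes ordered by role and then by mean. *nSyb*, *Sap47*, *Syt1* and *cpx* lie at the top, and *Nsf2* in replicate 2 and *Sytbeta* in replicate 3 lie far below their other values.

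Levels are in CPM, and the highest or lowest replicate of a gene is given on that scale unless TMM scaling is named. With TMM factors 29 of 34 genes kept their lowest replicate and 31 of 34 their highest. The lowest replicate changed for *nSyb*, *shi*, *cac*, *unc-13* and *nwk* and the highest for *Syt1*, *Frq1* and *Eps-15*.

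A few genes held most of the counts. *nSyb*, *Sap47*, *Syt1* and *cpx* together took 55.1 ± 4.05% (SD, n = 4) of the reads of the 34 genes, from 50.6 to 60.4% in single replicates. The summed level of the set was 6763, 5035, 5175 and 6087 CPM in replicates 1 to 4. Neighbours in the order of mean levels were mostly not separated. Only 3 of the 33 neighbouring pairs stood in the same order in 4 of 4 replicates, namely *cpx* above *shi*, *brp* above *nwk* and *stnA* above *Sytbeta*. Over all 561 pairs, 457 kept one order in 4 of 4 replicates, so the broad order was stable and the fine order was not.

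Among the SNAREs, *nSyb*, which encodes the neuronal vesicle SNARE (chromosome 3L, positions 1630348 to 1637752, minus strand, dm6), was the most abundant gene of the set. Its level was 995, 845, 1359 and 855 CPM in replicates 1 to 4, from 13372, 9393, 11900 and 9127 counts. It was highest in replicate 3, where the 95% Wilson interval of 1335 to 1384 CPM lay above the levels of the other 3. *Snap25*, the plasma membrane partner, was at 121, 71.2, 55.4 and 127 CPM and was lowest in the replicate in which *nSyb* was highest. The ratio of *nSyb* to *Snap25* counts within a library was consequently 8.25, 11.9, 24.5 and 6.72, above 1 in 4 of 4 replicates. Its mean was 12.8 ± 8.09 (SD, n = 4), and 8.94 without replicate 3. The ratio was chosen after the values had been seen.

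Of the genes for priming and fusion control, *cpx* was the most abundant. Complexin binds the assembled SNARE complex and both restrains and promotes fusion. Its level was 862, 545, 364 and 675 CPM, highest in replicate 1 and lowest in replicate 3. The ratio of *cpx* to *nSyb*, chosen after the values had been seen, was 0.866, 0.645, 0.268 and 0.790. *cpx* reads were therefore fewer than *nSyb* reads in every library, by the widest margin in replicate 3. *unc-13*, whose product primes docked vesicles, was at 151, 169, 120 and 201 CPM, the steadiest of these 4 genes by coefficient of variation (21.3%). *Rop*, the fly Munc18 protein that binds syntaxin, was at 116, 45.0, 61.2 and 88.1 CPM. *Cadps*, the fly CAPS protein that acts in dense-core vesicle release, was the lowest of the group. It was at 33.9, 12.9, 7.08 and 26.9 CPM, 4.79 times higher in replicate 1 than in replicate 3.

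Among the SNARE disassembly genes, a pair of paralogs differed in which was the higher. *comt* (X, 13259021 to 13262488, plus strand) and *Nsf2* (3R, 13833497 to 13837991, minus strand) both encode NSF, the ATPase that separates spent SNARE complexes. *comt* was at 115, 53.2, 39.5 and 97.9 CPM in replicates 1 to 4. *Nsf2* was at 31.8, 5.04, 68.1 and 37.7 CPM, from 427, 56, 596 and 403 counts. *Nsf2* thus fell to its lowest value in replicate 2 and reached its highest in replicate 3, a span of 13.5-fold. The 95% Wilson intervals for these 2 libraries, with reads taken as independent, were 3.88 to 6.54 CPM and 62.8 to 73.8 CPM and did not overlap. Within a library the ratio of *comt* to *Nsf2* was 3.61, 10.6, 0.581 and 2.6. *comt* was the higher of the pair in 3 of 4 replicates and the lower in replicate 3. The mean ratio was 4.34 ± 4.34 (SD, n = 4), and 2.26 without replicate 2.

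The remaining genes of this group varied less. *alphaSnap*, which encodes the adaptor that brings NSF to the SNAREs, was at 283, 186, 152 and 259 CPM and exceeded *comt* in every library, with a *comt* to *alphaSnap* ratio, chosen after the values had been seen, of 0.406, 0.286, 0.260 and 0.378. *Csp*, a co-chaperone on the vesicle membrane, was at 90.7, 73.5, 36.2 and 105 CPM and was lowest in replicate 3, as *comt* and *alphaSnap* were.

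*Syt1* dominated the 7 synaptotagmin genes. *Syt1*, the fast calcium sensor of release (2L, 2772327 to 2799979, minus strand), was at 768, 576, 749 and 747 CPM. Replicate 2 lay below the other 3, which were close to each other. Its coefficient of variation of 12.7% was the smallest in the set on the CPM scale. With TMM scaling it was 15.1%, above *brp* (6.89%), *Sap47* (10.4%), *nwk* (14.0%) and *shi* (14.1%). *Syt1* took 80.1% (95% Wilson interval 79.4 to 80.7%), 80.7% (79.8 to 81.6%), 86.8% (86.0 to 87.6%) and 76.6% (75.8 to 77.4%) of synaptotagmin counts in replicates 1 to 4. The intervals of replicates 1 and 2 overlapped, that of replicate 3 lay above and that of replicate 4 below. The mean share was 81.0 ± 4.26% (SD, n = 4). *Syt1* was below *nSyb* in every library, with a *Syt1* to *nSyb* ratio of 0.772, 0.682, 0.551 and 0.874.

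*Syt4*, a family member known in flies for retrograde signalling at the neuromuscular junction, came next at 93.0, 56.0, 45.0 and 105 CPM, with a mean share of synaptotagmin counts of 8.39 ± 2.45%. *Syt12* was at 25.5, 43.9, 37.1 and 34.0 CPM and *Syt7*, a calcium sensor of slower release, was at 30.5, 19.2, 9.94 and 49.5 CPM. These neighbours did not keep an order. *Syt7* was above *Syt12* in replicates 1 and 4 and below it in replicates 2 and 3, and its 4.98-fold span was the wider. *Sytalpha* averaged 16.6 ± 6.83 CPM and *Syt14* 10.7 ± 4.14 CPM. *Sytbeta* was the lowest gene of the whole set, with 75, 21, 3 and 48 counts, or 5.58, 1.89, 0.343 and 4.49 CPM. It held 0.337 ± 0.237% of synaptotagmin counts, and its value in replicate 3 rested on 3 reads.

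**Figure D2:**
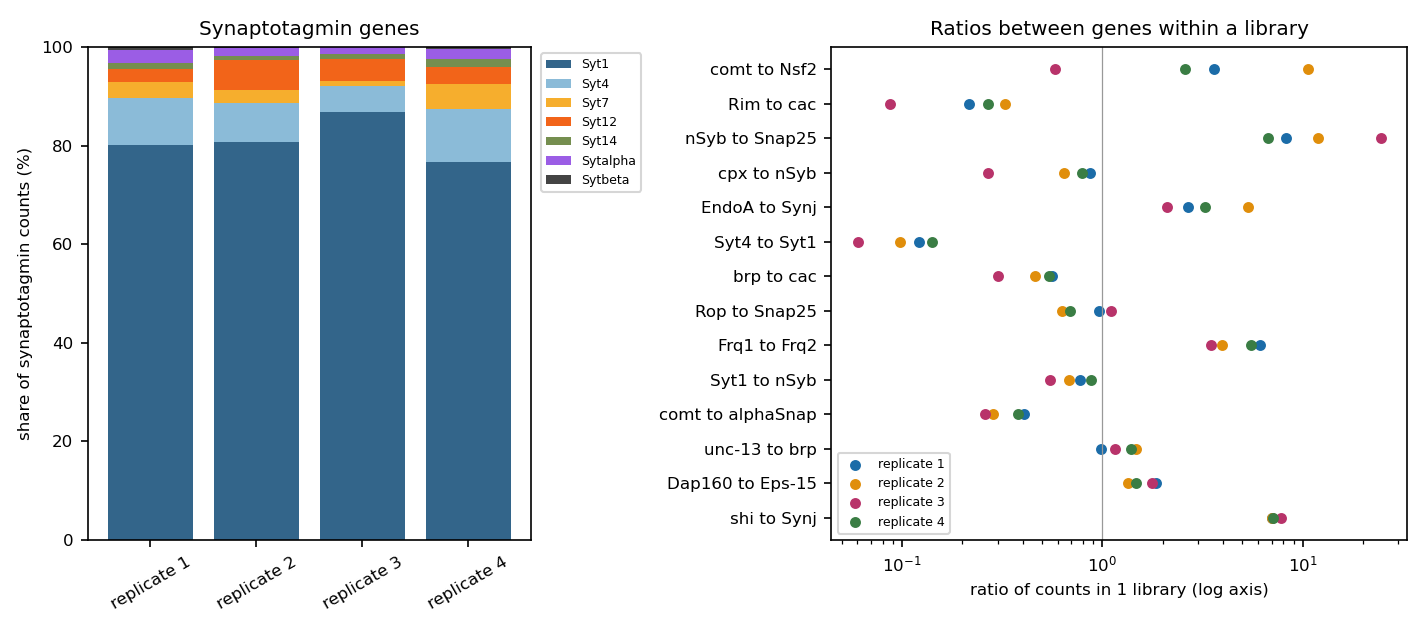
Left, share of synaptotagmin counts (%) taken by each of the 7 genes in each replicate. Right, ratio of the counts of 2 genes within a library (log axis), 1 point for each replicate, with a line at 1. *Syt1* takes 76.6 to 86.8% of each bar. Of the ratios plotted that of *comt* to *Nsf2* has the widest span, on both sides of 1, and that of *shi* to *Synj* the narrowest.

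In the active zone list the calcium channel gene was highest in the replicate in which the 3 scaffold genes were lowest. *cac* encodes the pore subunit of the presynaptic calcium channel. It was at 273, 251, 342 and 267 CPM, highest in replicate 3. *brp*, the scaffold of the electron-dense T-bar, was at 154, 116, 104 and 145 CPM and was lowest in replicate 3. With TMM scaling it was at 136, 122, 119 and 135 CPM, so that replicates 2 and 3 were nearly level. The ratio of *brp* to *cac* was 0.562, 0.460, 0.303 and 0.542, below 1 in 4 of 4 replicates. *Rim*, which tethers channels and vesicles, was at 58.9, 82.5, 29.8 and 71.6 CPM, and *Liprin-alpha*, an organiser of active zone assembly, at 14.6, 18.6, 9.48 and 18.5 CPM. *Rim* and *Liprin-alpha* were both lowest in replicate 3 and highest in replicate 2, where *Liprin-alpha* was level with replicate 4, unlike *brp*, which was highest in replicate 1. The ratio of *Rim* to *cac*, chosen after the values had been seen, ran from 0.087 in replicate 3 to 0.328 in replicate 2.

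Among vesicle proteins and calcium-binding proteins, *Sap47*, a vesicle-associated protein of fly nerve terminals, was the second gene of the whole set. It was at 1051, 804, 655 and 805 CPM. *Syn*, the single fly synapsin that holds vesicles in the reserve pool, was at 189, 95.7, 116 and 143 CPM. Both were highest in replicate 1. *Rab3*, the vesicle GTPase, was far lower at 54.6, 31.5, 14.9 and 41.8 CPM, a 3.68-fold span. The frequenin genes *Frq1* and *Frq2* encode closely related neuronal calcium sensors and lie 2867 bp apart on the plus strand of the X chromosome, at 18155369 to 18174744 and 18177612 to 18204407. *Frq1* was at 104, 43.2, 86.5 and 85.6 CPM and *Frq2* at 17.0, 11.0, 24.8 and 15.4 CPM. *Frq1* was higher in 4 of 4 replicates, by a factor of 6.10, 3.93, 3.49 and 5.54. How reads that match both copies were counted was not given in the sources used here, and the split between them is uncertain to that extent.

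Of the 14 ratios examined, the one with the narrowest span joined a pair of endocytic genes. *shi*, the fly dynamin that cuts vesicles from the membrane, was at 565, 353, 336 and 485 CPM. *Synj*, the synaptojanin that strips phosphoinositides from retrieved vesicles, was at 80.2, 49.9, 43.0 and 68.3 CPM. Both were highest in replicate 1 and, in CPM, lowest in replicate 3, and their ratio was 7.05, 7.07, 7.81 and 7.10, with a mean of 7.26 ± 0.372 (SD, n = 4). *EndoA*, the endophilin that recruits synaptojanin, did not follow them. It was at 214, 268, 90.0 and 223 CPM, and its ratio to *Synj* was 2.67, 5.36, 2.10 and 3.27.

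The clathrin adaptor gene *lap*, the fly AP180, was at 66.8, 49.6, 26.0 and 74.9 CPM. *nwk*, whose F-BAR protein bends membrane, was steadier at 97.7, 89.0, 77.6 and 124 CPM. The scaffolds *Dap160*, an intersectin, and *Eps-15* act together in the periactive zone. *Dap160* was at 36.9, 28.9, 48.0 and 40.7 CPM and *Eps-15* at 19.9, 21.6, 27.2 and 27.7 CPM. *Dap160* was higher in 4 of 4 replicates, with a ratio of 1.34 to 1.85, and neither gene was lowest in replicate 3.

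*stnA* was the lowest endocytic gene. It was at 6.25, 3.24, 19.3 and 4.87 CPM, from 84, 36, 169 and 52 counts. The 95% Wilson interval in replicate 3 was 16.6 to 22.4 CPM, above the other 3 values, and the mean of 8.42 CPM dropped to 4.79 CPM without that replicate. *stnA* and *stnB* are read from 1 dicistronic locus and carry the same annotated coordinates, X, 22980722 to 23004648, minus strand. A 3′ end of this transcript belongs to both genes. How the counting divided such reads was not given, so the low *stnA* count cannot be read as the level of the transcript.

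The median of the set lay farther from the other replicates than the median of all genes in each of the 4 libraries. In replicate 3 the median of the 34 genes lay 0.51 below the mean of the other 3 on the log2 scale (log2 −0.51), compared with log2 −0.33 over the 7754 genes, and 24 of 34 were below compared with 67.3% of genes. In replicate 2 the medians were log2 −0.37 and log2 −0.15, and 29 of 34 genes of the set were below compared with 60.9% of genes. Replicates 1 and 4 were higher, with set medians of log2 0.34 and 0.26 against 0.19 and 0.10 over all genes. Scaling with TMM factors, which removes shifts common to most genes, left set medians of log2 0.13, −0.27, −0.24 and 0.16 in replicates 1 to 4 where the median of all genes lay between −0.06 and −0.02. The median of the set was thus lower in replicates 2 and 3 than in 1 and 4 under both scalings. Its summed level, which the most abundant genes set, was not. With TMM scaling the sums were 5986, 5297, 5944 and 5691 CPM in replicates 1 to 4, so that replicate 3 stood above replicate 4. The summed glial markers were lower in replicates 2 and 3 than in 1 and 4 under both scalings. *Gs2* was the largest part of that sum, at 2282, 1202, 1048 and 1593 CPM, and the sum without it was not computed. Other glial genes did not all follow. *wrapper* was highest in replicates 2 and 3, and *alrm* in replicate 2 (53.0 CPM). In CPM, *nrv2* (346 and 361) and *Eaat1* (311 and 325) were close in replicates 3 and 4. The summed photoreceptor markers were lower in replicates 2 and 3 in CPM. With TMM scaling replicate 3 (32271 CPM) was level with replicate 4 (32181 CPM). In CPM, the higher neuronal sum in replicates 2 and 3 rested on *para*. Without it the other 4 neuronal genes summed to 1798, 1881, 1787 and 1636 CPM. On that scale *elav*, *Appl* and *fne* were each highest in replicate 1. TMM scaling raises levels in replicates 2 and 3 and lowers them in replicates 1 and 4. With TMM scaling the sum of the other 4 neuronal genes was therefore also higher in replicates 2 and 3, so it did not rest on *para* alone. The part of cell makeup in the shift was not tested.

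**Figure D3:**
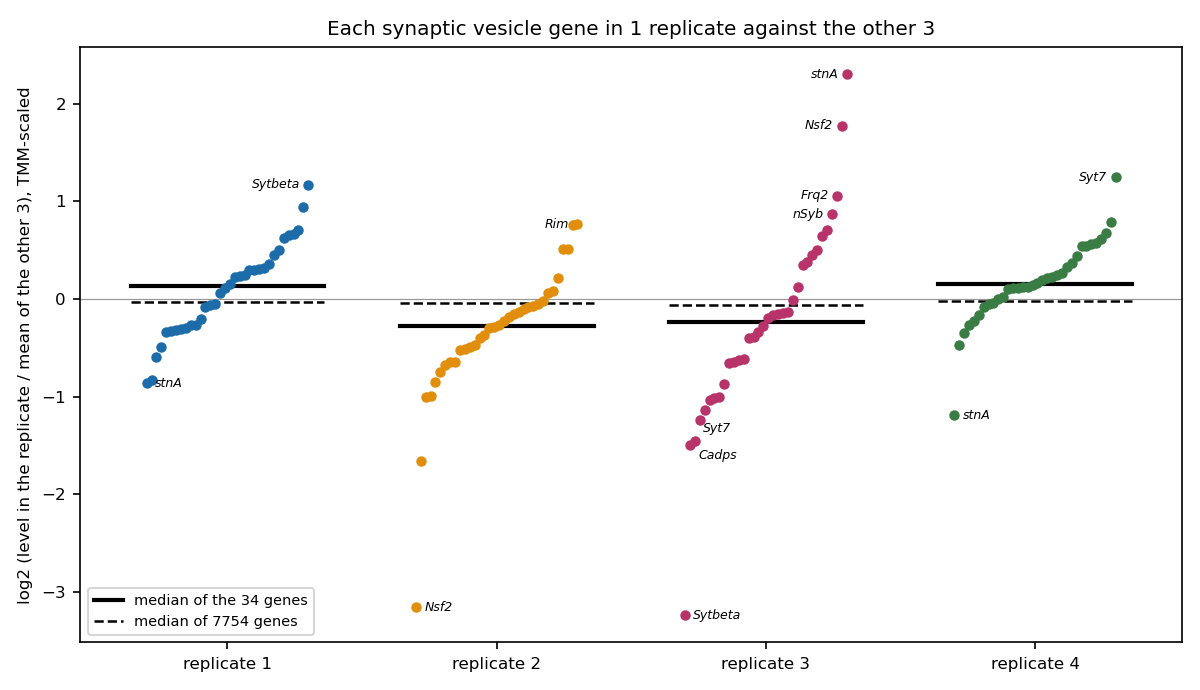
Log2 of each gene's TMM-scaled level in 1 replicate over its mean in the other 3, with 34 points a replicate sorted by value. Solid bars are medians of the set (0.13, −0.27, −0.24 and 0.16), dashed bars medians of 7754 genes, and the points of replicate 3 reach farthest both up (*stnA*, *Nsf2*) and, with *Sytbeta*, down.

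Genes of the set deviated in both directions in replicate 3, as genes at large did. That replicate held the lowest level of 20 of the 34 genes, compared with 43.7% of all genes, and of 17 of 34 with TMM scaling, compared with 33.0%. At the same time 10 of 34 genes were above the mean of their other replicates, compared with 32.7% of all genes. These were *stnA* (log2 2.01), *Nsf2* (1.45), *Frq2* (0.77), *nSyb* (0.60), *Dap160* (0.43), *cac* (0.38), *Eps-15* (0.24), *Frq1* (0.16), *Syt12* (0.11) and *Syt1* (0.10). The genes farthest below were *Sytbeta* (log2 −3.54), *Cadps* (−1.79), *Syt7* (−1.73), *Rab3* (−1.52) and *EndoA* (−1.38). With TMM scaling, the middle range between quartiles of the log2 differences in replicate 3 was 1.19 for the set and 1.07 for all genes. In the other 3 replicates it was 0.45 to 0.64 for the set and 0.72 to 0.78 for all genes, so the set was less scattered than genes at large there but not in replicate 3. These ranges were not compared at like abundance. Across the 7754 genes the coefficient of variation fell with mean level (Spearman −0.41), and the set was more abundant than genes at large. Rank correlations between libraries over the 34 genes ran from 0.864 for replicates 2 and 3 to 0.981 for replicates 1 and 4, and over 7754 genes from 0.870 to 0.936 (Spearman, across genes, which are not independent replicates).

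Position went along with part of these deviations. *Syt7*, *unc-13* and *Cadps* are the 3 genes of the set on the small chromosome 4, and all 3 were lowest in CPM in replicate 3, with a median of log2 −1.73 against the other replicates. The 69 measured genes of chromosome 4 had a median of log2 −0.90 there and 91.3% of them were below, compared with 67.3% of all genes. With TMM scaling the median of the chromosome 4 genes was log2 −0.64, and *Syt7* and *Cadps* but not *unc-13* remained lowest in replicate 3. In replicate 4 those 69 genes lay above the other replicates, at a median of log2 0.46. The low values of *Syt7* and *Cadps* in replicate 3 thus came with lower values of most genes of their chromosome, while *Sytbeta*, *Rab3* and *EndoA* lie on other arms.

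Spread between replicates followed level. The biological coefficient of variation, the spread beyond counting noise estimated in edgeR, had a median of 0.346 over 33 genes of the set and of 0.376 over 7754 genes, with 24 of 33 below the latter. The comparison differed at like abundance. Between the quartiles of level of the set, from 29.2 to 154 CPM, the median was 0.347 for the 16 genes of the set and 0.332 for all 2621 genes, and 4 of the 16 were below the latter. *Nsf2* (0.622) and *stnA* (0.617) were the most variable and *brp* and *Sap47* (0.301) the least. Without scaling, the median coefficient of variation was 34.1% for the 34 genes and 32.7% for the 7754.

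**Figure D4:**
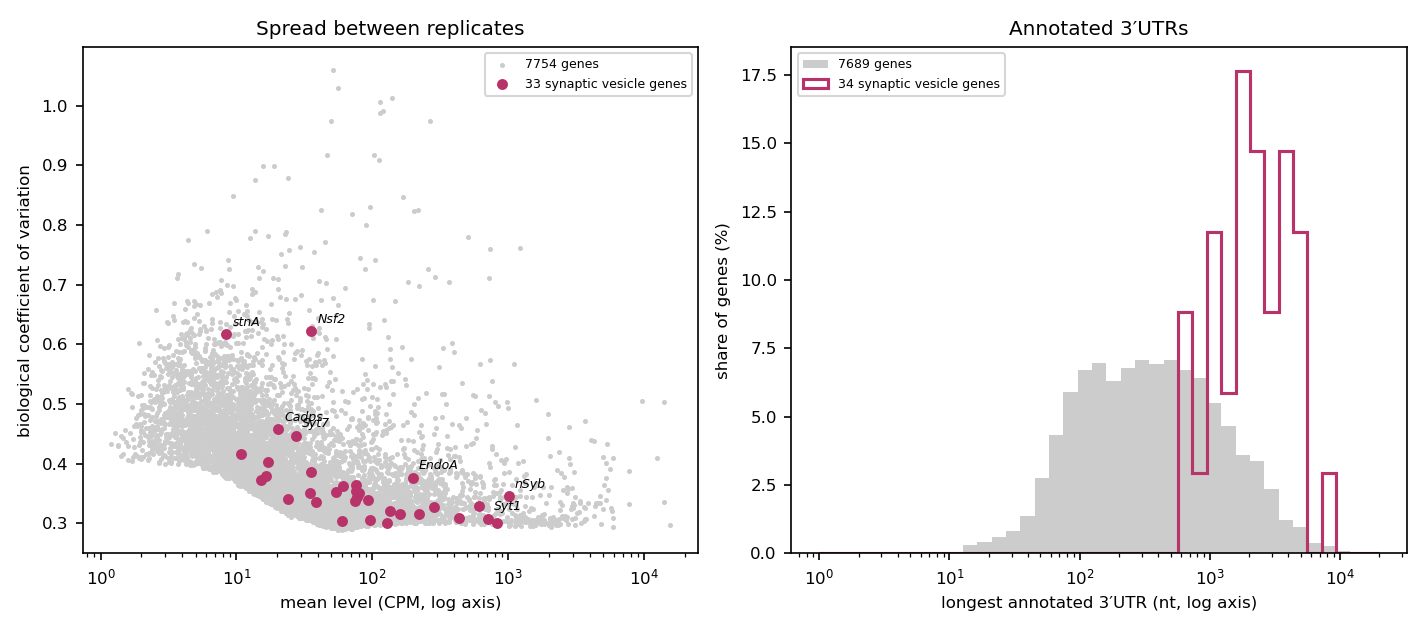
Left, biological coefficient of variation against mean level (CPM, log axis) for 33 genes of the set over 7754 genes in grey. *Nsf2* and *stnA* lie above the set. Right, share of genes (%) by longest annotated 3′UTR (nt, log axis), with the 34 genes of the set, median 2148 nt, to the right of 7689 measured genes, median 339 nt.

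The genes of the set shared long annotated 3′UTRs, but this was not particular to them. The 5 neuronal marker genes had longest 3′UTRs of 3466 nt (*Appl*) to 8761 nt (*para*). Poly(A) sites mark the ends of these UTRs, and neurons of *Drosophila* are known for using distal sites. In the Ensembl annotation the longest 3′UTR of each gene had a median of 2148 nt over the 34 genes, against 339 nt over 7689 measured genes and 383 nt over the 3548 of them at or above the lower quartile of level of the set. All 34 lay above 339 nt, as did 33 of 33 without *stnA*, whose annotated 3′UTR holds the *stnB* reading frame. In 30 of 34 the 3′UTR was at least 1000 nt, compared with 21.3% of measured genes. The longest belonged to *cpx* (8785 nt), *stnA* (5525 nt), *cac* (4765 nt), *Frq1* (4588 nt), *brp* (4391 nt) and *Syt1* (4011 nt), and the shortest to *comt* (624 nt), *Cadps* (630 nt) and *Rop* (662 nt). These are annotated lengths, since the counts were summed over each gene and do not say which 3′ end was used.

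Several annotated 3′ ends were also common. Of the 34 genes, 24 had at least 2 distinct annotated 3′ ends, compared with 35.8% of measured genes, and *cac* and *shi* had 4 each. The genes themselves were long, with a median of 13038 bp against 3077 bp. Across the 34 genes the longest 3′UTR and the mean level had a Spearman correlation of 0.38, against 0.096 across 7689 measured genes, points that share libraries and are not independent. 26 of the 34 shared exons with no other annotated gene, and 4 overlapped a gene of the table on the opposite strand. *Sytalpha* at 338, 120, 100 and 204 counts overlapped *CG6870* at 2451, 1090, 989 and 1423 counts, and both were highest in replicate 1. *Syt14* overlapped *Suv3*, *Syn* overlapped *Timp*, and *Frq2* overlapped *Hesr*, which had no count. Whether the counting used strand was not given, so the levels of these 4 genes are uncertain to that extent.

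Genes of the same pathway outside the set had a median level below that of the set. Of 37 listed, 35 were analysed and 35 of 35 reached 10 counts in each library. Their median level was 50.4 CPM, from 6.27 to 440.1 CPM, and their longest 3′UTR had a median of 594 nt, between that of the 34 genes and that of all measured genes. The highest was *Hsc70-4*, the chaperone that uncoats clathrin vesicles, at 440.1 ± 159.9 CPM (SD, n = 4), followed by the early endosomal GTPase gene *Rab5* at 408 ± 40.4 CPM.

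The closest paralogs of the SNARE genes were below them. *Syb*, the broadly expressed synaptobrevin, averaged 61.2 ± 16.9 CPM against 1013 ± 241 CPM for *nSyb*. *Snap24* averaged 22.6 ± 11.2 CPM and was below *Snap25* in 4 of 4 replicates. Within the other active zone and priming genes, *RhoGAP100F*, the fly Syd-1, led at 152 ± 17.9 CPM, above *brp* in replicates 2 and 3 only, with *tomosyn* (59.5 CPM) and *Spn* (57.3 CPM) next and *Rbp* lowest (8.43 CPM). Of the other SNAREs and SNARE partners *gammaSnap1* (114 CPM) and *Syx7* (89.2 CPM) led and *gammaSnap2* (6.27 CPM) was lowest. In the clathrin and membrane-bending list *Synd* (152 CPM) and *AP-2sigma* (124 CPM) followed *Hsc70-4*, and *aux* (19.2 CPM) was lowest. Of the vesicle proteins and transporters *Vmat* (166 CPM) and *VAChT* (91.9 CPM) followed *Rab5*, and *prt* (9.77 CPM) was lowest.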

How the data were processed

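RNA from head lysates of 4 wild-type replicates, prepared per the methods as an immunoprecipitation input, was sequenced from its 3′ ends. Each library took 10 ng of total RNA. Per the labels and the methods, the authors aligned trimmed reads to dm6 with STAR 2.6.1b and counted them per gene with featureCounts. The deposited values are raw counts with no normalization. The methods name an Ensembl annotation for the study's RNA-seq counting and do not say whether it was also used for the 3′-seq counts. Strand setting and the treatment of multiply mapped reads are not given in the sources used here. Nor is it given whether internally primed reads were removed before counting per gene. No column belonged to another sample.

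Levels are counts per 1000000 counts of the library (CPM), with library totals of 8753359 to 13434565. Coordinates, exons and 3′UTRs came from Ensembl release 115, which matched 13513 of 13608 identifiers; 95 did not match. The biological coefficient of variation was taken from an intercept-only model in edgeR 4.0.16 (R 4.3.3) with TMM factors, over the 7754 genes for which each replicate held 10 counts or more. edgeR moderates these values toward the trend with abundance. The step was tested on simulated data in 2 ways. With the same spread for all genes, only the common value was checked. With some genes made more variable, the ranking of genes was checked under a filter on the mean count. The values of single genes under the filter used here were not tested. Alternatives were TMM and DESeq2 1.42.0 size factors, other count minimums and leaving out each replicate. Python 3.11.15, pandas 2.3.3 and scipy 1.17.1 were used.

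The members and lists were chosen with earlier results of these data known. All members are named, and of other pathway lists the 3 highest genes, the lowest and the closest paralogs. The counts by replicate, the 3′UTR, chromosome and like-level comparisons and the ratios so described were chosen after seeing the data. With 4 pairs an exact sign-flip test cannot go below p = 0.125, so the number of replicates in 1 order is given. Planned ratios to *Syx1A* and *stnB* were not analysed here.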

Additional observations from a re-analysis of the deposited data

Results flagged for a closer look

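Of 50 values over the 4 replicates that were examined for a sample far from the others, 2 stood out, where chance alone gives 2.5 (about 1 in 20). The level of *Syt1* had a gap between the lowest replicate and the next of 0.888 of its range, because replicate 2 at 576 CPM lay below 747 to 768 CPM in the others. With TMM scaling the gap was 0.638 of the range, under the critical value for 4 samples. The ratio of *shi* to *Synj* had a gap of 0.931 of its range, with 7.81 in replicate 3 against 7.05 to 7.10. That range is itself narrow, 1.11-fold from lowest to highest.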

How the results depend on the processing

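No paired analysis was possible because the series has a single group. The median percentile of 77.4 became 85.1 when every gene with a count in some library was ranked, since that ranking holds more genes of low level. The median biological coefficient of variation of 0.346 ran from 0.306 without replicate 3 to 0.373 when 1 replicate was left out, and the number of genes of the set below the median spread was 24 of 33 over all levels and 4 of 16 between the quartiles of level of the set, beside genes in the same range. The median level was 72.8 to 80.3 CPM with other scalings or without replicates 2 or 3, and 64.2 to 65.7 CPM without replicates 1 or 4. With other scalings 0 of 34 means moved by more than 1 SD, and the largest fold was 1.08. Of the 34 means 1 moved by over 1.5 times when a replicate was left out, that of *stnA* (4.79 CPM without replicate 3). Of the mean ratios, *comt* to *Nsf2* ran from 2.26 without replicate 2 to 5.59 without replicate 3. The number of genes of the set lowest in replicate 3 was 20 of 34, compared with 43.7% of all genes. It was 17 with TMM factors, compared with 33.0%. With DESeq2 factors it was 15, and the share over all genes was not computed. Depth limits *Sytbeta* and *stnA*, where 1 library holds 3 and 36 counts respectively.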
